A study of Mus musculus with 6 samples.

Results

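The constitutive proteasome genes were followed here in the stomach corpus of mice. They were chosen by symbol: every gene of the deposited table named Psma, Psmb, Psmc, Psmd, Psme, Psmf or Psmg followed by a number, without the inducible catalytic subunits Psmb8, Psmb9 and Psmb10. This gave 45 genes of 18988 rows. Of these, 16 encode the core particle, 17 the regulatory particle and 12 encode assembly chaperones, alternative caps or an inhibitor. RNA was sequenced from the corpus, where the parietal cells that make acid and the chief cells that make pepsinogen sit. It came from 3 control mice of the genotype Ras;APC FF (replicates 1 to 3) and 3 mice of the genotype PGC;Ras;APC FF (replicates 4 to 6), each library being 1 mouse. All were on a C57BL/6 background, and the Ras and APC FF components were shared by both groups, so the groups differ by the PGC component. What PGC and FF stand for is not written out in the labels, nor are the age or sex of the mice, a driver line, or how and when alleles were induced. The series' title speaks of gastric cancer induced in the corpus by successive oncogenic activation, and the comparison asks how these genes stand in the corpus once the PGC component is added.

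The proteasome is the protease that degrades proteins tagged with ubiquitin. Its core particle is a barrel of stacked rings of alpha and beta subunits, and 3 of the beta subunits carry the active sites. The regulatory particle sits on the end of the barrel: its lid removes ubiquitin, and its base holds a ring of ATPases that unfold the substrate and push it into the core. Cells lacking proteasome capacity raise the whole gene set through the transcription factor NFE2L1, and interferon replaces the active subunits by inducible ones.

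The unit is FPKM, the number of fragments of a gene scaled by its length and by the size of the library. Genes reaching 1 FPKM in 3 or more of the 6 libraries entered a limma test on log2(FPKM + 1), with Benjamini-Hochberg adjustment over all 11857 tested genes. Of the 45 proteasome genes 43 passed this filter. Psma8, a testis form of an alpha subunit, was at 0.02 to 0.20 FPKM, and Psmb11, the beta subunit of the thymus cortex, at 0 to 0.02 FPKM. Neither was tested.

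A few facts of the whole table touch every result below. The pepsinogen gene Pgc, the colipase gene Clps and the phospholipase gene Pla2g1b together made up 48.1%, 43.9% and 34.9% of all FPKM in the controls, against 32.7%, 31.7% and 6.36% in PGC;Ras;APC FF replicates 4 to 6. The median tested gene had a log2 change of 0.26 as deposited and -0.0027 after median-of-ratios scaling, so changes are also given relative to it. Control replicate 3 was the library with Y-linked RNA (Eif2s3y at 13.2 FPKM, Xist at 0), while Xist was at 3.58 to 6.19 FPKM in the other 5. Parietal cell genes (8 of 8 in the table) summed to 8316 to 10135 FPKM in controls and to 8200, 9061 and 1880 in replicates 4 to 6. Without Gif, which is on the chief cell list too, they summed to 7045 to 7958 in controls and to 5310, 6680 and 1322 in replicates 4 to 6, so all 3 were lower. Chief cell genes (4 of 4) summed to 155782 to 206540 FPKM in controls and to 106048, 94486 and 19856 in replicates 4 to 6, most of it Pgc. The other 3 (Bhlha15, Chia1 and Gif) summed to 8532 to 15457 FPKM in controls and to 18592, 15729 and 3797 in replicates 4 to 6, so only replicate 6 was lower. Endocrine genes (5 of 5) summed to 3280 to 4053 FPKM in controls and to 3222, 3223 and 920 in replicates 4 to 6. Surface pit cell genes (4 of 4) summed to 72984 to 143565 FPKM in controls and to 107634, 103605 and 107856 in replicates 4 to 6. Mucous neck cell genes (3 of 3) summed to 2003 to 3068 FPKM in controls and to 3646, 3858 and 11068 in replicates 4 to 6. Most of it was Tff2, at 10906 FPKM in replicate 6. Muc6 was at 38.5 to 77.6 FPKM in controls and 77.9, 157.2 and 140.4 in replicates 4 to 6. Cftr was at 0.02 to 0.20 FPKM in controls and 0.78, 1.12 and 21.4 in replicates 4 to 6. Like the proteasome genes, Tff2 and Cftr were highest in replicate 6, while Muc6 was highest in replicate 5. Adipocyte genes (4 of 4) summed to 16.3 to 24.3 FPKM in controls and 0.15 to 1.25 in PGC;Ras;APC FF. Smooth muscle genes (7 of 7) summed to 1942 to 3509 FPKM in controls and 887 to 1300 in PGC;Ras;APC FF. The defining squamous genes Krt5, Krt14 and Trp63 were at or near 0 in all libraries, at most 0.22 FPKM. Of the other 2 squamous genes, Krt13 was at 0.16 to 0.83 FPKM in controls and 2.34 to 4.63 in PGC;Ras;APC FF, and Lor at 0.08 to 0.23 and 0.38 to 0.63 FPKM. The part of these cell types in the results was not tested. In such whole-tissue RNA, fewer cells of a type and less RNA per cell cannot be told apart.

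All 43 tested proteasome genes had a log2 change above 0 in PGC;Ras;APC FF corpus over controls, as did 80.6% of all tested genes, and 0 passed the adjusted threshold of 0.05 in either direction. Their log2 changes lay between 0.11 (Psme4) and 0.73 (Psma5), with a median of 0.51 against 0.26 for all tested genes. Their adjusted p (limma) lay between 0.0850 and 0.497. The adjusted threshold was passed by 0.11% of all tested genes on the higher side and 0.0422% on the lower side, so that 0 of 43 is close to the rest of the table. At an unadjusted limma p under 0.05, 36 of the 43 were higher and 0 lower, where 31.8% and 3.63% of all tested genes were. In 38 of the 43 every PGC;Ras;APC FF library lay above every control library, which 42.7% of all tested genes did. The opposite order was found in 0 of 43 and in 5.47% of all tested genes. A log2 change above that of the median tested gene was found for 42 of 43, with Psme4 below it.

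**Figure D1:**
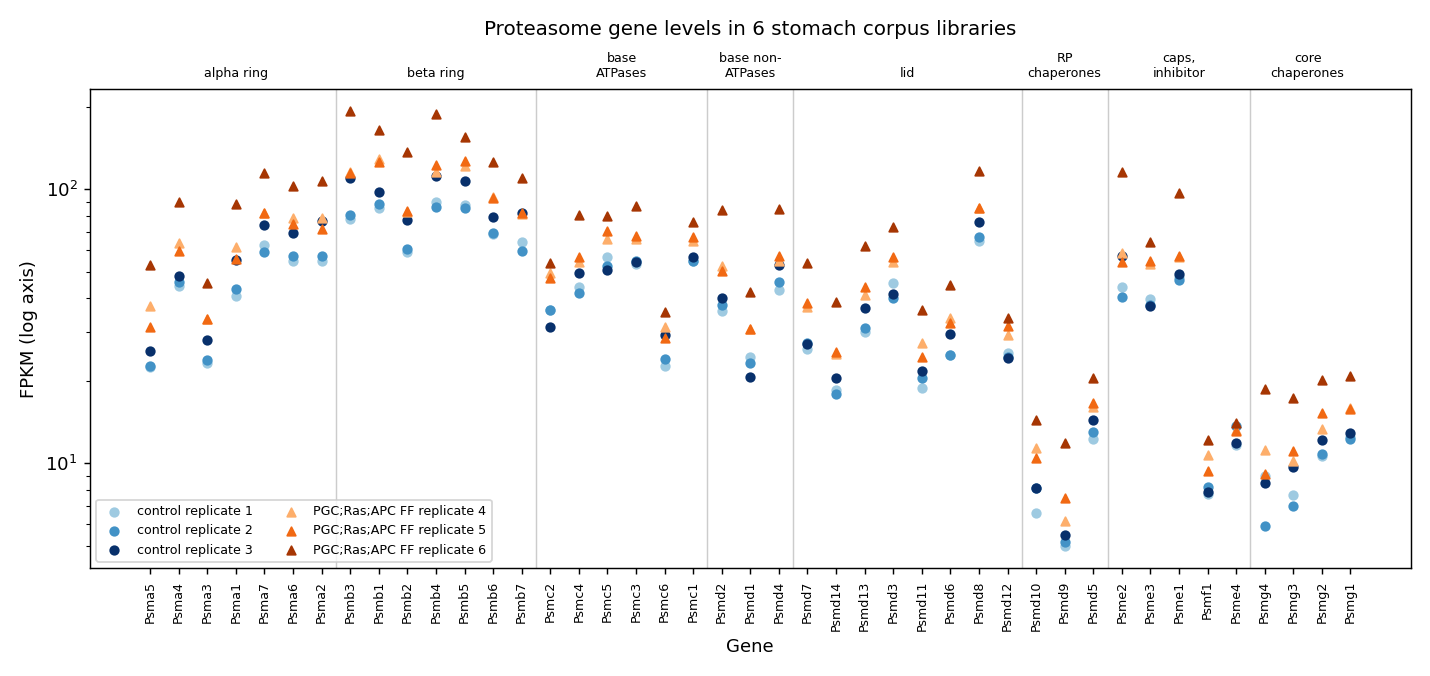
FPKM (log axis) of the 43 tested proteasome genes in each of the 6 libraries, grouped by role and ordered within a role by log2 change, with circles for controls and triangles for PGC;Ras;APC FF. Replicate 6 is the highest library for all 43 genes, and replicates 4 and 5 lie close together.

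The higher FPKM was uneven between the mice. Replicate 6 was the highest library for all 43 genes, and for all 43 replicates 4 and 5 were closer to each other than either was to replicate 6. Over the mean of the controls, core genes were 1.19 to 1.59-fold in replicate 4 (median 1.30), 1.14 to 1.39-fold in replicate 5 (median 1.28) and 1.61 to 2.25-fold in replicate 6 (median 1.81). Regulatory particle genes were at 1.16 to 1.43-fold, 1.13 to 1.43-fold and 1.37 to 2.22-fold in the same 3 libraries. As a share of summed FPKM the 45 genes took 0.219%, 0.222% and 0.241% in the controls and 0.296%, 0.295% and 0.478% in replicates 4 to 6. Among controls, replicate 3 was the highest for 32 of the 43. The order of the libraries by these shares was the reverse of their order by the share of Pgc, Clps and Pla2g1b, apart from replicates 4 and 5.

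After median-of-ratios scaling the median log2 change of the 43 genes was 0.20, and 42 of 43 stayed above 0, with Psme4 at -0.17. Of all tested genes 49.7% had a change above 0 there. On that scale 10 of 43 had an unadjusted limma p under 0.05 on the higher side, against 13.2% of all tested genes, and 0 passed after adjustment, against 0.0759%. These 10 were Psma3, Psma4, Psma5, Psmb1, Psmd1, Psmd2, Psmd7, Psmd10, Psmd14 and Psme3. The groups stood apart on the higher side in 15 of 43, against 18% of all tested genes, and on the lower side in 1 of 43 (Psme4), against 16.7%. The 15 were Psma3, Psma4, Psma5, Psmb1, Psmb6, Psmc3, Psmd1, Psmd2, Psmd7, Psmd10, Psmd11, Psmd14, Psme3, Psmf1 and Psmg1. On this scale core genes averaged 0.18, 0.17 and 0.36 over the controls in replicates 4 to 6, and control replicate 3 was at 0.18 too, no lower than replicates 4 and 5. The regulatory particle genes were at 0.13, 0.18 and 0.23, with controls between -0.058 and 0.037. Below, changes and overlap of groups are on the deposited scale unless a scaling is named.

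**Figure D2:**
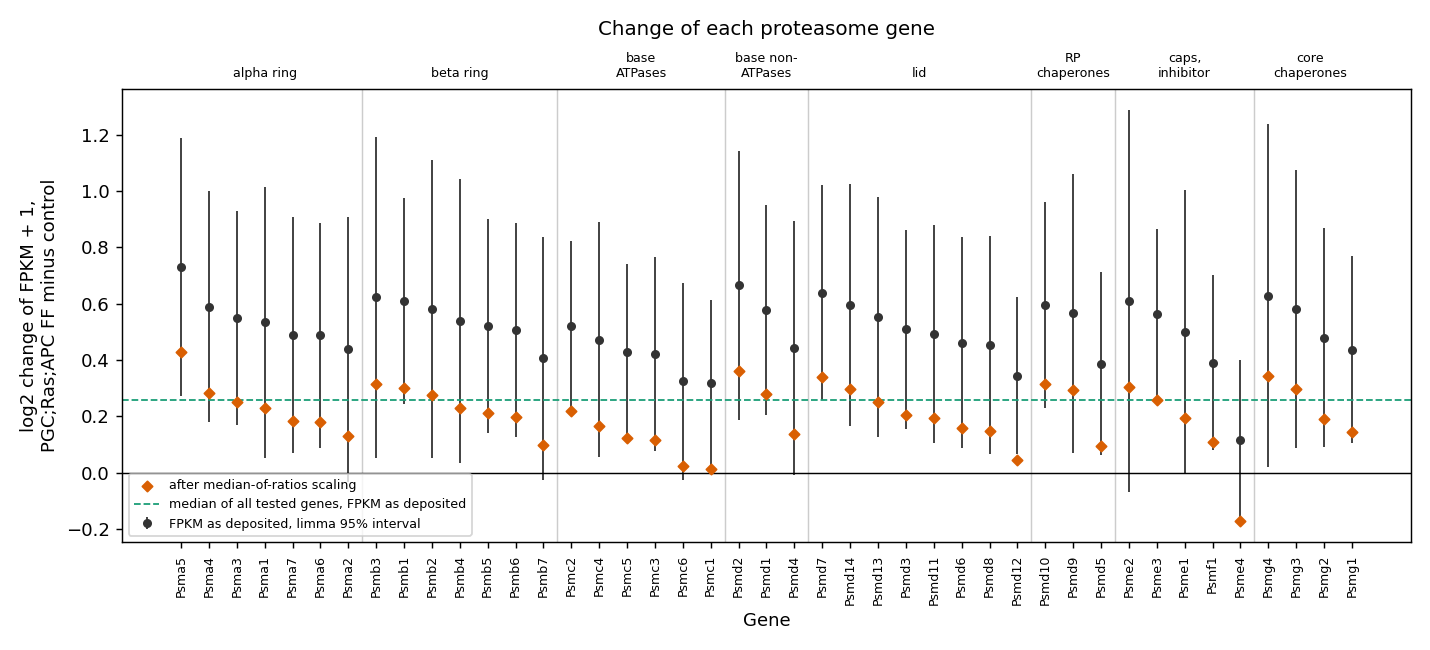
Log2 change of each tested proteasome gene, PGC;Ras;APC FF minus control, with its limma 95% interval on the deposited scale (circles) and its value after median-of-ratios scaling (diamonds). All but Psme4 lie above the dashed line, the median of all tested genes at 0.26, and after scaling only Psme4 lies below 0.

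The alpha ring forms the outer wall and gate of the core. Psma5 had the largest log2 change of the 43 genes. It was at 22.4, 22.6 and 25.6 FPKM in control replicates 1 to 3 and at 37.3, 31.3 and 53.0 FPKM in PGC;Ras;APC FF replicates 4 to 6, a log2 change of 0.73 ± 0.20 (SE, limma adjusted p = 0.0857). The lowest PGC;Ras;APC FF library stood above the highest control. Psma5 lies on chromosome 3 (108256926 to 108279974, plus strand, GRCm38). The smallest change of the ring was that of Psma2, at 54.6, 57.1 and 76.2 FPKM in controls and 78.3, 71.5 and 106.7 FPKM in PGC;Ras;APC FF (log2 change 0.44 ± 0.20 SE, limma adjusted p = 0.159). Here control replicate 3 lay above replicate 5, so the groups overlapped. The other 5 alpha genes (Psma1, Psma3, Psma4, Psma6 and Psma7) had log2 changes of 0.49 to 0.59 with groups that did not overlap. Of all tested genes 42.7% stood apart on the higher side. After median-of-ratios scaling the groups of Psma1, Psma6 and Psma7 overlapped. Those of Psma3 and Psma4 stayed apart, as did 18% of all tested genes on the higher side.

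The beta ring holds the active sites: Psmb5 encodes the chymotrypsin-like, Psmb6 the caspase-like and Psmb7 the trypsin-like subunit. Psmb5 was at 87.4, 85.4 and 106.9 FPKM in controls against 121.5, 126.2 and 154.8 FPKM in PGC;Ras;APC FF (log2 change 0.52 ± 0.16 SE, limma adjusted p = 0.0952). Psmb6 was at 68.8, 69.2 and 79.0 FPKM against 93.4, 93.1 and 125.2 FPKM (0.51 ± 0.16 SE, limma adjusted p = 0.0960). Neither gene had groups that overlapped on the deposited scale. After median-of-ratios scaling those of Psmb6 stayed apart. Those of Psmb5 overlapped there, with control replicate 3 (117.0) above replicate 4 (115.7). Psmb7 had the smallest change of the ring, with 64.0, 59.4 and 81.5 FPKM in controls and 81.1, 81.5 and 110.0 FPKM in PGC;Ras;APC FF (0.41 ± 0.19 SE, limma adjusted p = 0.156). Its highest control, replicate 3, lay above replicate 4.

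Among the beta subunits without an active site, Psmb3 had the largest change. It was at 77.7, 80.4 and 110.2 FPKM in controls against 115.2, 114.3 and 192.7 FPKM in PGC;Ras;APC FF (log2 change 0.62 ± 0.25 SE, limma adjusted p = 0.122). Replicates 4 and 5 stood only just above control replicate 3, and replicate 6 far above. Psmb1, Psmb2 and Psmb4 had log2 changes of 0.61, 0.58 and 0.54. Over the 14 tested core genes the median log2 change was 0.54, and control replicate 3 was the highest control for 14 of 14. The groups did not overlap in 12 of 14, against 42.7% of all tested genes on the higher side. After median-of-ratios scaling they stood apart in 5 core genes, against 18% of all tested genes.

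The base of the regulatory particle is a ring of 6 ATPases. Psmc2 had the largest change among them, at 36.3, 36.2 and 31.3 FPKM in controls and 49.3, 47.2 and 53.7 FPKM in PGC;Ras;APC FF (log2 change 0.52 ± 0.13 SE, limma adjusted p = 0.0850). On the deposited scale its groups were far apart for their spread, and control replicate 3 was its lowest library. After median-of-ratios scaling the change of Psmc2 was 0.22 (limma unadjusted p = 0.0950). There its groups overlapped, with control replicate 1 (41.7) above replicate 6 (41.1). Psmc1 had the smallest change, at 54.4, 54.5 and 56.6 FPKM against 64.7, 67.1 and 75.6 FPKM (0.32 ± 0.13 SE, limma adjusted p = 0.125). The groups of Psmc1 did not overlap on the deposited scale, but its change was 0.011 after median-of-ratios scaling and -0.067 and -0.046 under the other 2 scalings. Psmc3, Psmc4 and Psmc5 had changes of 0.42 to 0.47 without overlap. On the deposited scale Psmc6, at 0.32, was the 1 regulatory particle gene whose groups overlapped. The other 16 stood apart, against 42.7% of all tested genes on the higher side. After median-of-ratios scaling 6 of 17 stood apart on that side, against 18% of all tested genes.

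Of the other base subunits, Psmd1 and Psmd2 are the large scaffolds and Psmd4 is a ubiquitin receptor. Psmd2 was at 35.9, 37.7 and 40.2 FPKM in controls against 52.6, 50.4 and 84.2 FPKM in PGC;Ras;APC FF (log2 change 0.66 ± 0.21 SE, limma adjusted p = 0.0935). Replicate 6 stood far above the other 5 libraries. Psmd1 had a change of 0.58 without overlap. Psmd4 was at 42.9, 45.7 and 52.7 FPKM against 54.7, 57.0 and 84.7 FPKM (0.44 ± 0.19 SE, limma adjusted p = 0.145). Its replicate 4 lay just above control replicate 3.

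The lid carries Psmd14, the deubiquitinase of the particle, and its partner Psmd7. Psmd7 had the largest lid change, at 26.1, 27.4 and 27.2 FPKM in controls and 37.1, 38.5 and 53.6 FPKM in PGC;Ras;APC FF (log2 change 0.64 ± 0.16 SE, limma adjusted p = 0.0850). The 3 controls were close together and the groups did not meet. Psmd14 had a log2 change of 0.59, and Psmd3, Psmd6, Psmd8, Psmd11 and Psmd13 had changes of 0.45 to 0.55. Psmd12 had the smallest, at 25.3, 24.5 and 24.2 FPKM against 29.3, 31.6 and 33.9 FPKM (0.34 ± 0.12 SE, limma adjusted p = 0.104). It was at -0.012 when libraries were rescaled to the total without the 50 most abundant genes. All 8 lid genes stood apart between the groups on the deposited scale, as 42.7% of all tested genes did on the higher side. The median log2 change of the lid genes was 0.50. After median-of-ratios scaling Psmd7, Psmd11 and Psmd14 alone among them stayed apart, against 18% of all tested genes on the higher side.

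The chaperones that build the particles had changes in the range of the particles. Psmd10 (gankyrin), which guides assembly of the base, was at 6.58, 8.09 and 8.10 FPKM in controls and 11.3, 10.5 and 14.3 FPKM in PGC;Ras;APC FF (log2 change 0.60 ± 0.16 SE, limma adjusted p = 0.0850). Psmd5, also a base chaperone, was at 12.3, 13.0 and 14.3 FPKM against 15.99, 16.6 and 20.4 FPKM (0.39 ± 0.14 SE, limma adjusted p = 0.109). Both had groups that did not overlap, as did Psmd9, at a change of 0.57. The core chaperones Psmg1 to Psmg4 pair up to assemble the alpha ring. Psmg4 was at 8.97, 5.90 and 8.48 FPKM in controls and 11.2, 9.10 and 18.6 FPKM in PGC;Ras;APC FF (0.63 ± 0.26 SE, limma adjusted p = 0.134), with replicate 5 just above the highest control. Psmg1 was at 12.5, 12.2 and 12.9 FPKM against 15.9, 15.7 and 20.8 FPKM (0.44 ± 0.14 SE, limma adjusted p = 0.0972). Psmg2 and Psmg3 had changes of 0.48 and 0.58. None of the 4 had groups that overlapped on the deposited scale, where 42.7% of all tested genes stood apart on the higher side. After median-of-ratios scaling only Psmg1 among them had groups that stayed apart, against 18% of all tested genes on the higher side. Of Psmd5, Psmd9 and Psmd10, only Psmd10 had groups that stayed apart there.

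The caps and the inhibitor had the widest range of changes of any role. Psme1 and Psme2 encode the interferon-inducible cap of the core. Psme2 was at 44.0, 40.2 and 56.8 FPKM in controls against 58.6, 54.1 and 115.4 FPKM in PGC;Ras;APC FF (log2 change 0.61 ± 0.29 SE, limma adjusted p = 0.169). Replicate 6 alone was far from the rest, and replicate 5 lay below control replicate 3. A retro-copy, Psme2b, was at 0.23 to 1.09 FPKM, and how reads shared between the 2 were counted is not known here. Psme1 had a change of 0.50 without overlap. Psme3, the nuclear cap, was at 39.8, 37.8 and 37.4 FPKM against 53.1, 54.8 and 64.0 FPKM (0.56 ± 0.13 SE, limma adjusted p = 0.0850). It had the lowest unadjusted p of the 43 (limma, 0.00274), and all 3 PGC;Ras;APC FF libraries were clear of the controls. Psmf1, an inhibitor and adaptor of the core, had a log2 change of 0.39.

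Psme4, a large monomeric cap, was the exception. It was at 11.7, 13.7 and 11.8 FPKM in controls and 13.3, 13.1 and 14.0 FPKM in PGC;Ras;APC FF (log2 change 0.11 ± 0.12 SE, 95% interval -0.17 to 0.40; limma adjusted p = 0.497). The groups overlapped on the deposited scale, and the interval holds the median of all tested genes. After each of the 3 scalings its change was below 0 (-0.17 to -0.23), and after median-of-ratios scaling replicates 4 to 6 were all lower than the 3 controls. Another large proteasome-bound protein, the adaptor Ecpas (listed as AI314180), was at 10.8, 12.7 and 11.9 FPKM in controls and 11.1, 12.0 and 12.2 FPKM in PGC;Ras;APC FF (log2 change -0.0028 ± 0.12 SE, limma adjusted p = 0.987). After median-of-ratios scaling its change was -0.29 (limma unadjusted p = 0.0313). Their coding lengths are 5529 and 5520 bases, and the 446 other tested genes with a coding length above 5000 bases had a median log2 change of 0.12, or -0.12 after that scaling. The part of length in their values was not tested.

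Core and regulatory particle genes stood higher by about the same amount. The median log2 change was 0.54 over 14 core genes and 0.47 over 17 regulatory particle genes. Within a library, the mean log2(FPKM + 1) of core genes minus that of regulatory particle genes was 0.68, 0.69 and 0.90 in control replicates 1 to 3 and 0.80, 0.75 and 0.89 in replicates 4 to 6. The group means were 0.75 ± 0.13 and 0.81 ± 0.068 (SD, n = 3 each), so the difference of 0.059 was smaller than the spread between mice of a group. The largest value was that of a control. The difference kept its sign under every setting run. It was 0.13 without control replicate 3 and 0.021 to 0.091 without any other single library.

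**Figure D3:**
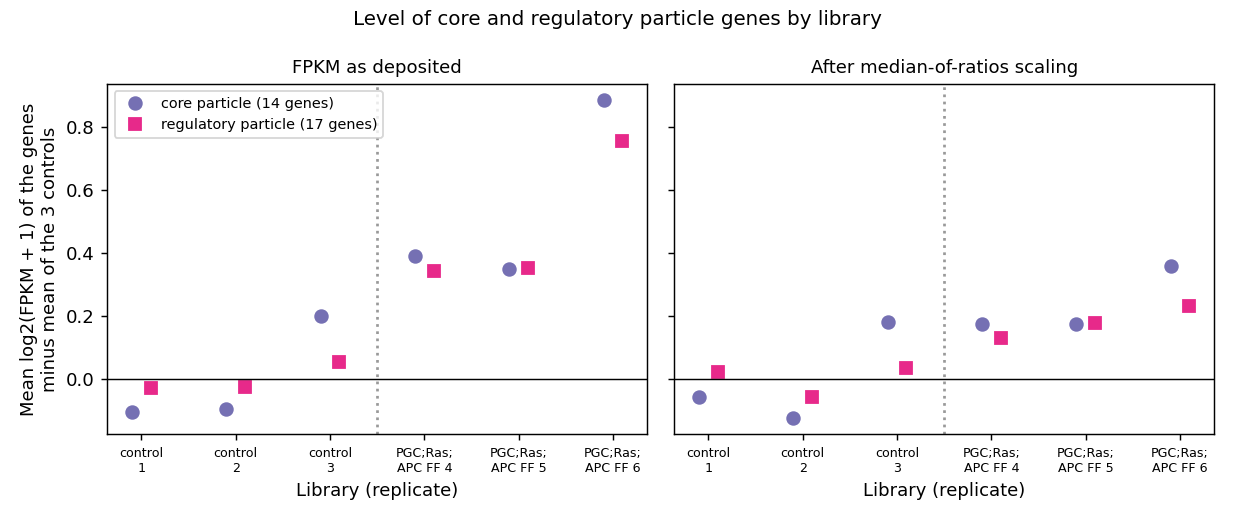
Mean log2(FPKM + 1) of the 14 core genes (circles) and 17 regulatory particle genes (squares) in each library, minus the mean of the 3 controls, on the deposited scale (left) and after median-of-ratios scaling (right). On the left both particles stand at 0.34 to 0.39 in replicates 4 and 5 and at 0.76 to 0.89 in replicate 6. On the right control replicate 3 reaches the core level of replicates 4 and 5.

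Control replicate 3 split the particles: its core genes were 0.20 above the control mean and its regulatory particle genes 0.055. Core genes are short, with coding lengths of 603 to 831 bases, and regulatory particle genes long, at 930 to 2859 bases. Among all other tested genes, the mean log2(FPKM + 1) of the 1264 genes in the first range minus that of the 6322 genes in the second was 0.57, 0.53 and 0.69 in control replicates 1 to 3 and 0.64, 0.64 and 0.69 in replicates 4 to 6. Replicates 3 and 6 were thus the highest libraries in both measures, and replicates 1 and 2 the lowest. With the mean change of other genes of like coding length subtracted in each library, a setting chosen after seeing the data, the difference between groups was 0.010 in place of 0.059. The part of length in the difference between the particles was not tested.

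**Figure D4:**
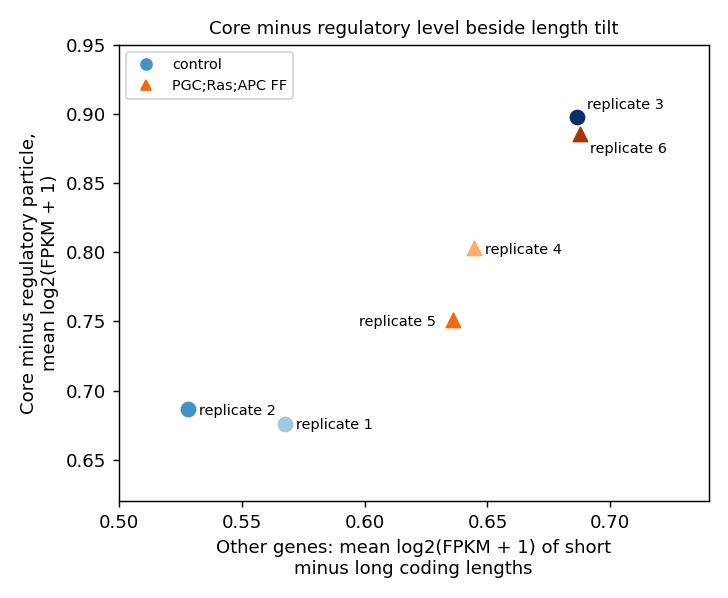
Core minus regulatory particle level of each library (vertical axis, mean log2(FPKM + 1)) against the level of other short genes minus other long genes in the same library (horizontal axis). Control replicate 3 and PGC;Ras;APC FF replicate 6 lie together at the top right, at 0.90 and 0.89, and control replicates 1 and 2 at the bottom left.

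The subunits of a particle are needed in equal number, yet their RNA levels per length were not equal. In each library the most abundant core gene was 3.85 to 4.35 times the least abundant, and the most abundant regulatory particle gene 3.41 to 3.74 times the least. The core extremes were Psmb1, Psmb3, Psmb4 or Psmb5 at the top and Psma3 or Psma5 at the bottom. Psmd8 was the most abundant regulatory particle gene in all 6 libraries. The median core gene was at 59.1 to 76.6 FPKM in controls and 81.3 to 112 FPKM in PGC;Ras;APC FF, against 35.9 to 36.9 and 47.2 to 62.1 FPKM for the median regulatory particle gene. This order of the genes was held between libraries: across the 43 genes, Spearman's rho between any 2 libraries was 0.955 to 0.994. Genes of a library share its depth and are not independent, so this is a description.

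The inducible catalytic subunits, left out of the gene set, were high in 1 library. Psmb8, Psmb9 and Psmb10 take the places of Psmb5, Psmb6 and Psmb7 under interferon. Psmb8 was at 7.33, 6.89 and 8.70 FPKM in controls and 10.8, 7.71 and 34.8 FPKM in PGC;Ras;APC FF (log2 change 0.84 ± 0.46 SE, limma adjusted p = 0.215). Psmb9 was at 9.29, 9.55 and 12.1 FPKM against 10.97, 10.9 and 33.0 FPKM (0.59 ± 0.39 SE, limma adjusted p = 0.280), and Psmb10 at 15.8, 13.3 and 13.5 FPKM against 18.5, 18.1 and 45.9 FPKM (0.77 ± 0.33 SE, limma adjusted p = 0.140). Replicate 6 was far above all other libraries for each, while replicates 4 and 5 lay within the control range for Psmb9 and above it for Psmb10. For Psmb8 replicate 4 lay above every control and replicate 5 within their range.

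As a share of its constitutive counterpart, Psmb8 was at 8.07% to 8.39% of Psmb5 in controls, 8.89% and 6.11% in replicates 4 and 5 and 22.5% in replicate 6. Psmb9 was at 13.5% to 15.2% of Psmb6 in controls, 11.7% in both replicates 4 and 5 and 26.4% in replicate 6. Psmb10 was at 16.6% to 24.7% of Psmb7 in controls, 22.8% and 22.2% in replicates 4 and 5 and 41.7% in replicate 6. The higher share was a feature of that 1 mouse, and there is no replicate of it. Of 10 interferon-related genes 9 were tested and 0 passed (limma, 0 also at an unadjusted p under 0.05; median log2 change 0.20). Of the 9 tested, 6 had a log2 change above 0, against 80.6% of all tested genes. The 3 below 0 were Ifit1, Isg15 and Irf7. The 10 summed to 110.9 to 143.6 FPKM in controls, 129.98 and 112.5 in replicates 4 and 5 and 287.6 in replicate 6. The largest part was Tapbp, at 38.9 to 44.5 FPKM in controls and 104.7 in replicate 6. In replicate 6 Ifit1 (6.24 FPKM) and Isg15 (17.3) lay within the control range (3.94 to 6.48 and 6.93 to 19.5). Immune cell markers (6 of 6 in the table) summed to 11.4 to 13.3 FPKM in controls and to 24.4, 13.0 and 34.4 in replicates 4 to 6. Their part in the values of replicate 6 was not tested.

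**Figure D5:**
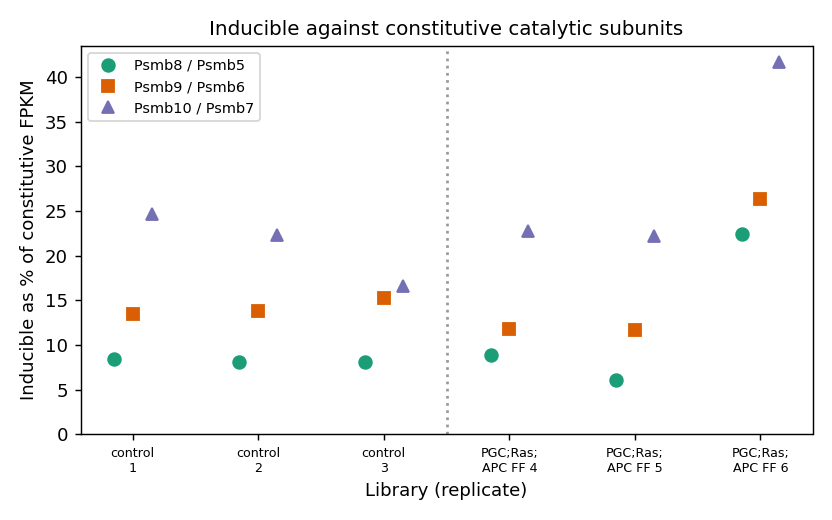
FPKM of each inducible catalytic subunit as a percentage of its constitutive counterpart in the 6 libraries. Replicate 6 stands at 22.5% (Psmb8 to Psmb5), 26.4% (Psmb9 to Psmb6) and 41.7% (Psmb10 to Psmb7), above every other library.

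Proteasome genes with other names were close to the set. Among 10 of 11 listed that have a row, 0 passed (limma). At an unadjusted limma p under 0.05, 6 were higher, against 31.8% of all tested genes. A change above 0 was found for 9, against 80.6% of all tested genes, with a median of 0.43. The largest was Pomp, the maturation factor of the core, at 64.3, 62.2 and 72.8 FPKM in controls and 90.4, 87.3 and 127.3 FPKM in PGC;Ras;APC FF (0.59 ± 0.18 SE, limma adjusted p = 0.0920). Its groups did not overlap. The smallest was AI314180, given above.

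Nfe2l1, the factor known to drive proteasome genes, was at 34.3, 35.4 and 34.6 FPKM in controls and 37.6, 39.7 and 48.5 FPKM in PGC;Ras;APC FF (log2 change 0.26 ± 0.14 SE, limma adjusted p = 0.208), the change of the median tested gene. Nfe2l2, its relative of the oxidative stress response, was at 121.4, 149.2 and 136.6 FPKM against 155.9, 178.5 and 140.4 FPKM (0.22 ± 0.16 SE, limma adjusted p = 0.325), and replicate 6 lay within the control range. Nfe2l3, the third relative, had the largest change of the list, at 3.15, 3.38 and 2.07 FPKM against 8.13, 6.32 and 17.3 FPKM (1.49 ± 0.33 SE, limma adjusted p = 0.0850). Its groups did not overlap. Over the 12 genes of this circuit, which include the processing enzymes Ddi2 and Ngly1 and the small MAF partners, 0 passed (limma). At an unadjusted limma p under 0.05, 6 were higher, against 31.8% of all tested genes. The median log2 change of the 12 was 0.33. These are RNA levels, and the activity of the factors was not measured. Ngly1 had the smallest, at 9.89, 11.4 and 10.9 FPKM against 10.96, 11.5 and 14.0 FPKM (0.16 ± 0.14 SE, limma adjusted p = 0.399).

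Promoters of the proteasome genes were searched because NFE2L1 and NFE2L2 act through the antioxidant response element. RefSeq promoter windows on GRCm38.p6 run from 250 bases before to 50 after each start, and 37 of the 45 genes had an entry (40 windows). No entry was held for Psma8, Psmb1, Psmb2, Psmb7, Psmc3, Psmd3, Psmd7 and Psmg2. The motif TGANNNNGC, a loose form of the core of that element, was found on either strand in 23 of 40 windows (57.5%) and in 41.3% of all 32851 windows. Any base was allowed at each N. The stricter TGACTCAGC, a case of the first, was found in 0 of 40 and in 0.454% of all. CCAAT, the NF-Y box, was in 32.5% against 37.4% of all, and GGAAGTG, an ETS motif, in 20% against 11%. Genes with TGANNNNGC had a median log2 change of 0.52 (20 tested) and those without 0.50 (16 tested). A match is a run of letters and was not shown to be a bound site.

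Below are the 250 bases before the start of 2 active-site genes with an entry, and of the genes with the largest and the smallest change. They are printed 5′ to 3′ on the gene's strand with TGANNNNGC matches in capitals. Psmb5 spans chr14:54617996-54618245 (minus strand), Psmb6 chr11:70525107-70525356 (plus), Psma5 chr3:108256676-108256925 (plus) and Psme4 chr11:30771525-30771774 (plus).
Psmb5: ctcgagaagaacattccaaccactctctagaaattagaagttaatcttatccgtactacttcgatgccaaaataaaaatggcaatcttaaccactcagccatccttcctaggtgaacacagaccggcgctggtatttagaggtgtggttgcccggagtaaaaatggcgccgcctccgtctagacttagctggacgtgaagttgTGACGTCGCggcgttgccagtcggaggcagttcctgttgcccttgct
Psmb6: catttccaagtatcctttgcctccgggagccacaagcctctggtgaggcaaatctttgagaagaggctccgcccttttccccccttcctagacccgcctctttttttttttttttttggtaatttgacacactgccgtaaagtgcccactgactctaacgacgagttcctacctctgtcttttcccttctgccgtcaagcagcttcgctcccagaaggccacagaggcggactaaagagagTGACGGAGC
Psma5: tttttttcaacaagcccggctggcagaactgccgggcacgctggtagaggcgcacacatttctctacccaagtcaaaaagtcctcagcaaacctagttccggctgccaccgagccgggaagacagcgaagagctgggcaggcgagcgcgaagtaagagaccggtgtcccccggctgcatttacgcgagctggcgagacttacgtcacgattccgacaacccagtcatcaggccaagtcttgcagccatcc
Psme4: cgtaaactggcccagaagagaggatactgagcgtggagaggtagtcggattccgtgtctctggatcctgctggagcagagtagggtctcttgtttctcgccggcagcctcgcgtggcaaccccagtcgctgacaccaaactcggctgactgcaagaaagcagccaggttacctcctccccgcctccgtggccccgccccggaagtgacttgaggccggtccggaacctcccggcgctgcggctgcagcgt
The Psmb5 match, TGACGTCGC, lies 47 to 39 bases before the start, and the Psmb6 match, TGACGGAGC, 9 to 1 bases before it. Psma5 and Psme4 have no whole match in the printed stretch. Each has a match on the opposite strand in the rest of its window, TGAGCACGC after the start in Psma5 and TGACGCTGC across the start in Psme4. Psmb5 holds another, TGAATCAGC, at the far end of its window.

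Beside 2 other complexes found in all cells, the proteasome genes lay in between. The COP9 signalosome, whose subunits are relatives of the proteasome lid, had a median log2 change of 0.40 over 9 genes, from 0.23 (Cops2) to 0.51 (Cops5). The CCT chaperonin, which folds actin and tubulin, had 0.66 over 8 genes, from 0.52 (Cct4) to 0.74 (Cct3). None of these 17 genes passed (limma, 16 at an unadjusted p under 0.05), and in all 17 the groups did not overlap. Of all tested genes 31.8% were higher at that p, and in 42.7% the groups stood apart on the higher side. CCT levels in control replicate 3 were 0.011 from the control mean, where core proteasome levels were 0.20 above it. After median-of-ratios scaling the medians were 0.10 for COP9, 0.35 for CCT and 0.20 for the proteasome genes. On that scale 0 of 9 COP9 genes and 6 of 8 CCT genes had an unadjusted limma p under 0.05. Of all tested genes 13.2% were higher at that p. Proliferation genes, 13 of 13 tested, had a median of 1.00 on the deposited scale, and 0 passed (limma). All 13 were higher at an unadjusted limma p under 0.05, against 31.8% of all tested genes. Control replicate 3 was their lowest library, at -0.25 over the control mean, where it was the highest control for the core proteasome. Whether these differences between lists exceed the spread was not tested.

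The calls depended on single libraries, for proteasome genes as for the whole table. Without replicate 6, 6 of 43 genes rose at an adjusted limma p under 0.05, against 7.17% of all 11600 tested genes. They were Psma5 (0.52), Psmb1 (0.49), Psmc2 (0.47), Psmd2 (0.43), Psmd7 (0.47) and Psme3 (0.48, log2 changes), with adjusted p of 0.0398 to 0.0499. Without replicate 5, Psma5 alone rose (0.89, limma adjusted p = 0.0494), which is 2.33% of the 43, against 3.54% of all tested genes. Without both control replicate 3 and replicate 6, a setting chosen after seeing the data that leaves 2 mice per group, 30 of 43 rose, against 16.5% of all tested genes. Among these were all 14 tested core genes and 12 of 17 regulatory particle genes. Leaving out any other single library gave 0 calls among the 43, where 0% to 0.0172% of all tested genes were called higher.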

How the data were processed

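Gene-level FPKM of 6 corpus libraries (3 control, 3 PGC;Ras;APC FF) were used as deposited by the authors, rounded to 2 decimals. The submitters' processing notes name STAR, featureCounts and mm10. Tool versions, the annotation, strand handling and how FPKM were made from counts: not given in the sources used here. RNA was extracted with a column kit and DNase and sequenced at BGI, per the labels' protocols. Since FPKM are no counts, limma 3.58.1 (R 4.3.3, two-sided, genotype as the 1 term, eBayes using a trend) was run on log2(FPKM + 1), which understates the change of low genes. Each gene had 4 residual degrees of freedom, or 7.72 once spread was shared across genes. The smallest p of an exact test of 3 against 3 is 0.1, so no exact test is given. Read depth is unknown. The smallest product of FPKM and length in kilobases among RNAs shorter than 260 bases was 0.0374 to 0.0471, roughly what 1 fragment is worth, so that Psma8 and Psmb11 rest on a few fragments at most. No counting interval is given. Coordinates and coding lengths are from GENCODE M21 (GRCm38, the assembly of mm10), matched by symbol.

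The proteasome genes and all lists were chosen with earlier results of these data known. Named with values in every library are the active-site genes and, in each role, the gene of largest and of smallest change, plus Psme3, chosen after its values were seen. Apart from some interferon genes and cell type markers, a list's other genes are given by count and median, with no test of the list. The values of 1 listed gene are not reported here. Alternatives were a pseudocount of 0.1, other filters, 3 scalings, eBayes without trend and leaving out libraries. P-values set the difference between the groups against the spread between these mice, with spread shared across genes.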

Additional observations from a re-analysis of the deposited data

How the results depend on the processing

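The median log2 change of core and of regulatory particle genes was 0.23 and 0.17 with median-of-ratios scaling, 0.20 and 0.12 with quantile normalization, and 0.17 and 0.11 after rescaling to the total without the 50 most abundant genes, against 0.54 and 0.47 as deposited. The median of all tested genes moved to -0.0027, -0.017 and -0.052. Psme4 turned to -0.17, -0.20 and -0.23 under these, Psmc1 to -0.067 and -0.046 under the last 2, and Psmd12 to -0.012 under the last. With 1 library left out in turn, 0 to 6 proteasome genes were called higher, and the particle medians were 0.36 to 0.63 and 0.34 to 0.55. Proteasome genes called lower were 0 under every setting run. Of all tested genes 13 were called higher and 5 lower. This was 29 higher with a pseudocount of 0.1, 3 higher without a filter, 2 and 1 with 1 FPKM required in all libraries, and 10, 13 and 10 lower under the 3 scalings. It was 0 to 832 higher and 0 to 106 lower with 1 library left out, and 1888 and 152 without replicates 3 and 6, where 30 proteasome genes were called. The causes were not tested. The lowest adjusted p among proteasome genes lay between 0.0206 and 0.246 over all settings. No paired analysis was possible because the groups share no replicate number. Absolute depth is unknown.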

Other observations

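The genes that feed substrates to the proteasome were also listed. Of 11 genes for ubiquitin itself, the activating enzymes and the shuttle receptors, 0 passed (limma). At an unadjusted limma p under 0.05, 5 were higher, against 31.8% of all tested genes. A change above 0 was found for 10, against 80.6% of all tested genes, with a median log2 change of 0.38. The ubiquitin fusion gene Rps27a had the largest, at 171.1, 153.7 and 260.2 FPKM in controls and 255.7, 263.1 and 518.7 FPKM in PGC;Ras;APC FF (0.78 ± 0.32 SE, limma adjusted p = 0.132). Its control replicate 3 lay above replicate 4. After quantile normalization the median of the list was -0.033, and after the other 2 scalings 0.083 and 0.025.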
